A study of Mus musculus with 7 samples.

Results

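The genes of the chemokine ligands and of their receptors were examined in the mammary gland of wild-type mice and of PRA transgenic mice. The genes were chosen by name, from the array probes whose gene name in the files begins with Ccl, Cxcl, Ccr or Cxcr followed by a number, or is Cx3cl1, Cx3cr1, Xcl1 or Xcr1. Examined were 74 probes for 54 genes, out of 56605 probes on the array, with 36 ligands and 18 receptors. A gene was tested where the gland signal of a probe stood well above background in every animal of 1 or both genotypes. This held for 49 probes and 39 genes, which were 29 ligands and 10 receptors. The remaining 15 genes are accounted for after the tested ones.

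The arrays held total gland RNA from 7 mice, 3 wild-type and 4 PRA transgenic, all nulliparous females of the FVB strain, 20 to 25 weeks old and killed at diestrus, with 1 animal per array. PRA transgenic mice are bigenic: a GAL-4 transgene under the murine cytomegalovirus (CMV) promoter, which is not restricted to the mammary epithelium, drives an additional gene for the A form of the progesterone receptor placed behind GAL-4 binding sites (UAS). From each mouse 1 abdominal gland was taken after its lymph nodes had been cut out, so the RNA is that of whole tissue with fat, vessels, stroma and resident immune cells. Gland RNA carried Cy5, and the Cy3 channel of every array held Universal Mouse Reference RNA, which pools mouse cell lines. A value is therefore a log2 ratio of gland over reference, and a log2 fold change is the mean of PRA transgenic minus the mean of wild-type log2 ratios. A difference in Cy5 or Cy3 alone is the same difference of log2 signals, after each array was centered on its median in that channel.

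Chemokines are small secreted proteins that direct the migration of leukocytes through G protein-coupled receptors. Inflammatory chemokines such as Ccl2 are made on demand by macrophages, fibroblasts, endothelium and epithelium and recruit monocytes, T cells or granulocytes, while homeostatic chemokines such as Ccl19, Ccl21a, Cxcl12 and Cxcl13 position lymphocytes and stem cells in resting tissue. In the mammary gland, macrophages and eosinophils recruited in this way take part in the growth of the ducts.

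The results turn on 4 genes with lower ratios in PRA transgenic glands, the monocyte attractants Ccl2 and Ccl7, the macrophage and T cell attractant Ccl4 and the neutrophil attractant Cxcl1. The first 30 of the 60 bases of their probes are shown because these probes fix which stretch of each transcript was read. Coordinates come from the deposited annotation, build mm9. The Ccl2 probe lies at chr11:81850650-81850709, the Ccl7 probe at chr11:81860656-81860715, the Ccl4 probe at chr11:83478052-83478111 and the Cxcl1 probe at chr5:91322080-91322139.
Ccl2 probe: tgtaggagtgaccagtgtgacagtgaacta
Ccl7 probe: ttctgagaactgttgatgaaatgtgttgat
Ccl4 probe: tattatttatgttttagttataggacgcgt
Cxcl1 probe: cgctcgggacagagacgttcaaaggactgt

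Inflammatory chemokine genes are known targets of the transcription factor NF-kappaB, so the 250 bases before the start of each gene (RefSeq, GRCm38.p6) were searched on both strands for its motif, which reads GGGA, then NNT, then NCC without a gap, N being any base. At least 1 match was present in 7 of 44 promoters found for 40 of the 54 genes (15.9%), and in 1094 of all 32851 promoters of that length (3.33%). The 7 genes were Ccl1, Ccr3, Ccr6, Cxcl1, Cxcl2, Cxcl3 and Cxcl10. Of the genes with lower ratios named above, only Cxcl1 was among them, and Ccl2, Ccl7 and Ccl4 were not. The promoters of the neutrophil attractants Cxcl1, Cxcl2 and Cxcl3 and of the interferon-inducible Cxcl10, which all lie on chromosome 5, are shown on the sense strand with the matches in capitals. In Cxcl1, Cxcl2 and Cxcl3 the capitals are a pair of overlapping matches, 1 on each strand. They span chr5:90890995-90891244 for Cxcl1, chr5:90903649-90903898 for Cxcl2, chr5:90785851-90786100 for Cxcl3 and, on the minus strand, chr5:92348890-92349139 for Cxcl10.
Cxcl1 promoter: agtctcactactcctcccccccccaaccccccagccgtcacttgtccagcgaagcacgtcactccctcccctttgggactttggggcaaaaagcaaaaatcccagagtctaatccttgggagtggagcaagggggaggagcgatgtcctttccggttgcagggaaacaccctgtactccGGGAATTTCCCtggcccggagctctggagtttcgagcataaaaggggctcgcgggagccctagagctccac
Cxcl2 promoter: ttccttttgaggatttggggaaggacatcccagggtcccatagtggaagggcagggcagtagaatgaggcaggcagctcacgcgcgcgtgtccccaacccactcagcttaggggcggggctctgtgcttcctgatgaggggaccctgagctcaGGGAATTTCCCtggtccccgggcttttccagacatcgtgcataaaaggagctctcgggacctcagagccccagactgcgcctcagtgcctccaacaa
Cxcl3 promoter: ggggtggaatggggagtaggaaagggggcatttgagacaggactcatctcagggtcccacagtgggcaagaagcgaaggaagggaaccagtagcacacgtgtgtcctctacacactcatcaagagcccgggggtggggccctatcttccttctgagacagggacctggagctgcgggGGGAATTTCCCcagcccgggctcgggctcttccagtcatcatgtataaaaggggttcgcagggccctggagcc
Cxcl10 promoter: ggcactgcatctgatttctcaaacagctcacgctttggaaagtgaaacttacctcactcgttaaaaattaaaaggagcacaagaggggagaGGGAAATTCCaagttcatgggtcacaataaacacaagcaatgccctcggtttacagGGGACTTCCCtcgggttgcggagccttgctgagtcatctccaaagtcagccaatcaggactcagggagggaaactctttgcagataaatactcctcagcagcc
Cxcl1, Cxcl2 and Cxcl3 thus carry the same run of letters in capitals. A match of letters is a description of the sequence and no evidence of binding in the gland. Of these 4 genes, Cxcl1 passed the test, Cxcl10 was tested and did not pass, and Cxcl2 and Cxcl3 were not well above background on any array. Here and below, passing the test means an unadjusted limma P under 0.05. No chemokine gene passed after adjustment over all probes tested.

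A few facts of the series bear on these values. All 7 arrays were on 1 slide, wild-type arrays in row 1 and PRA transgenic arrays in row 2, and the effects of row and genotype cannot be told apart. No spot was saturated. Pgr, the gene that the transgene carries, had a log2 fold change of -0.65 at its brightest probe (standard error 0.80; adjusted p = 0.859, limma with Benjamini-Hochberg adjustment). Its log2 ratios were 7.05, 4.30 and 4.04 in wild-type and 5.38, 4.72, 4.49 and 3.32 in PRA transgenic glands. Wild-type replicate 1 was thus the highest, and the other glands of the genotypes overlapped. Whether this probe reads the transcript of the transgene was not tested. Marker genes of the expected tissue were high on every array, with mean log2 ratios of 5.47 to 6.18 over 6 adipocyte genes, 4.67 to 5.27 over 6 endothelial genes, 1.76 to 2.64 over 6 luminal genes and 2.52 to 2.94 over 6 basal epithelial genes.

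Across the chemokine family the ratios of PRA transgenic glands lay mostly on the lower side. The log2 fold change was negative for 26 of 39 tested genes (66.7%), with a median of -0.18 and a range of -1.84 to 1.00, while 49.7% of all 16821 named genes tested were negative and their median was 0.00. Part of this rested on wild-type replicate 1. Without it Ccl8, Ccl9, Ccr9, Ccr10 and Cxcl15 turned positive and Ccl27a turned negative. At an unadjusted limma P under 0.05, 4 of 39 genes (10.3%) were lower in PRA transgenic glands, beside 4.54% of all named genes, and no chemokine gene was higher, beside 3.25%. Of the 4 genes, Ccl7 also passed a 1.5-fold change, beside 2.62% of all named genes that were lower by both criteria. The same 4 genes were the only ones of the 39 whose genotypes did not overlap, beside 4.76% of all named genes that were lower without overlap. None of the 39 passed the Benjamini-Hochberg adjustment over all probes (lowest adjusted p = 0.340, limma), which 4 of 34288 probes passed (0.0117%), with 3094 probes at an unadjusted P under 0.05. With limma, the count of 4 lower genes became 0 after quantile normalization, 7 without wild-type replicate 2 and 8 without PRA transgenic replicate 4. The count with the 1.5-fold change became 0 after quantile normalization, 2 in Cy5 alone and 3 or 4 without any 1 array other than PRA transgenic replicate 3. In whole tissue, fewer cells that express a chemokine and less of its RNA per cell cannot be told apart.

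**Figure D1:**
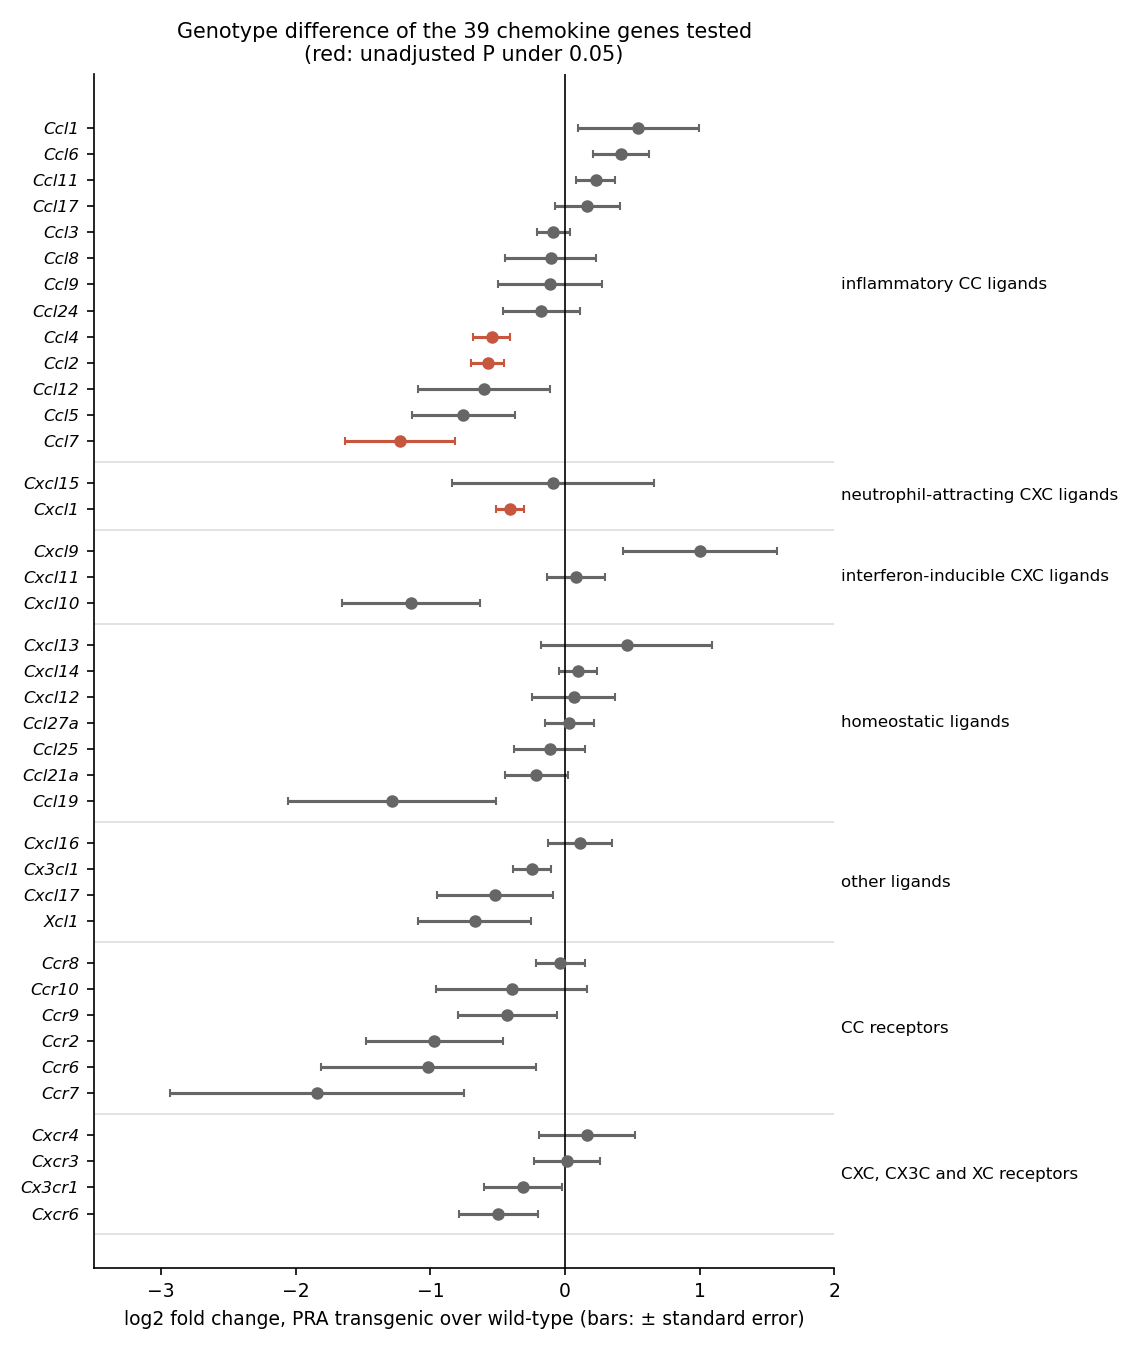
Log2 fold change of PRA transgenic over wild-type glands (horizontal axis) for each of the 39 tested chemokine genes, grouped by role, as points with the limma standard error as bars and genes at an unadjusted P under 0.05 in red. The 4 red points lie left of 0, and all 6 CC receptors lie left of 0.

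Among the inflammatory CC ligands, 13 of 16 genes were tested and 3 of them, Ccl2, Ccl4 and Ccl7, were lower in PRA transgenic glands. Ccl2, which draws monocytes through the receptor Ccr2, had log2 ratios of -2.26, -2.13 and -2.30 in wild-type replicates 1 to 3 and of -2.64, -2.87, -2.95 and -2.76 in PRA transgenic replicates 1 to 4. All 4 transgenic glands lay below all 3 wild-type glands, and the replicates of each genotype lay close together. The log2 fold change was -0.58 with a standard error of 0.12, or 1.49-fold lower (limma, unadjusted P = 0.0021, Benjamini-Hochberg adjusted p = 0.340). Ccl7, a monocyte attractant encoded next to Ccl2, had log2 ratios of -2.35, -0.88 and -2.39 in wild-type and of -3.21, -3.18, -3.47 and -2.54 in PRA transgenic glands. The groups did not overlap, but wild-type replicate 2 stood well above the others and PRA transgenic replicate 4 lay just below the lowest wild-type gland. Its log2 fold change was -1.23 with a standard error of 0.41, or 2.34-fold lower (limma, unadjusted P = 0.0193, adjusted p = 0.463), and -0.73 without wild-type replicate 2, where the P was 0.0323.

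Ccl4, which attracts macrophages, T cells and natural killer cells, had log2 ratios of -4.14, -3.86 and -3.95 in wild-type and of -4.45, -4.42, -4.49 and -4.76 in PRA transgenic glands. Every transgenic gland lay below every wild-type gland. The log2 fold change was -0.54 with a standard error of 0.14, or 1.46-fold lower (limma, unadjusted P = 0.0051, adjusted p = 0.395). A second probe for Ccl4 gave -0.51 (limma, unadjusted P = 0.0139, adjusted p = 0.443). It lies at chr11:83478038-83478097 and overlaps most of the first, so it is not a separate reading of the transcript. With normexp background correction and loess the estimate was -0.16 and did not pass. Ccl3, the neighboring gene that encodes a related chemokine, did not pass, with a log2 fold change of -0.09 and a standard error of 0.12. Its log2 ratios of -3.82 to -3.56 in wild-type and -3.88 to -3.65 in PRA transgenic glands overlapped.

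**Figure D2:**
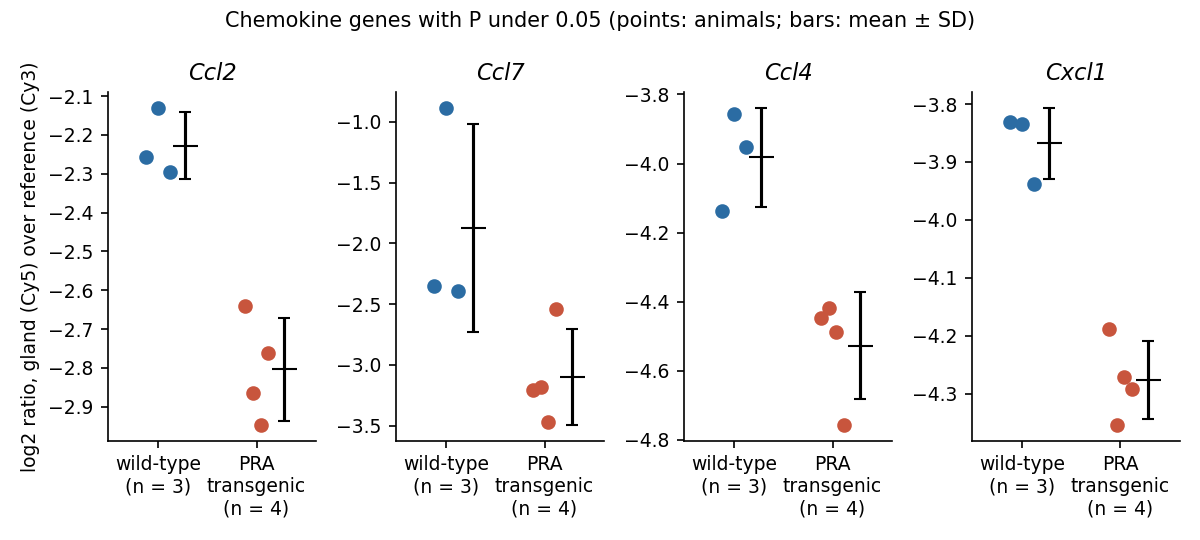
Log2 ratio of gland over reference (vertical axis) on each of the 7 arrays for Ccl2, Ccl7, Ccl4 and Cxcl1, with wild-type (n = 3) and PRA transgenic (n = 4) animals as points and the group mean ± SD in black beside them. Each gene has its own vertical scale. No PRA transgenic point reaches the lowest wild-type point of the same gene, and the gap is narrowest for Ccl7, where PRA transgenic replicate 4 lies at -2.54.

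The other 10 inflammatory CC ligands did not pass the test in either direction. Ccl5, which attracts T cells, had a log2 fold change of -0.75 with a standard error of 0.39. Ccl12, a monocyte attractant, had -0.60 with a standard error of 0.49. Ccl6, which is expressed by myeloid cells, had 0.42 with a standard error of 0.21, and its log2 ratios were 5.29 to 5.86 in wild-type and 5.62 to 6.29 in PRA transgenic glands. Ccl11, the eosinophil attractant known as eotaxin, had 0.23 with a standard error of 0.15, with log2 ratios of 2.85 to 3.20 and 3.05 to 3.36, so that neither eotaxin nor Ccl6 separated the genotypes. The remaining 6 genes, Ccl1, Ccl3, Ccl8, Ccl9, Ccl17 and Ccl24, lay between -0.18 and 0.54.

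Most inflammatory CC ligands are encoded together on chromosome 11, which held 14 of the 39 tested genes. In the proximal cluster the Ccl2 and Ccl7 probes are 10006 bases apart, and the log2 fold changes in genome order were -0.58 for Ccl2, -1.23 for Ccl7, 0.23 for Ccl11, -0.60 for Ccl12, -0.11 for Ccl8 and 0.54 for Ccl1. In the second cluster they were -0.75 for Ccl5, -0.11 for Ccl9, 0.42 for Ccl6, -0.09 for Ccl3 and -0.54 for Ccl4. The ratios of neighbors therefore took both signs, but none of the positive ones, Ccl11, Ccl1 and Ccl6, passed. Their differences in Cy5 alone were -0.95, 0.10 and 0.04, and in Cy3 alone -1.16, -0.43 and -0.37, so the reference channel contributed to these signs. Ccl3 and Ccl4, with probes 16694 bases apart, had unequal estimates of which Ccl4 alone passed.

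Among the neutrophil-attracting CXC ligands, which act through Cxcr2 and carry the shared motif shown above in 3 cases, 2 of 5 genes were tested and Cxcl1 was lower. Its log2 ratios were -3.83, -3.83 and -3.94 in wild-type and -4.19, -4.35, -4.27 and -4.29 in PRA transgenic glands. The spread within each genotype was small, with SDs of 0.06 and 0.07, and the groups did not overlap. The log2 fold change was -0.41 with a standard error of 0.11, or 1.33-fold lower (limma, unadjusted P = 0.0060, adjusted p = 0.405). Cxcl15, known for its expression in lung epithelium, had -0.09 with a standard error of 0.75 and ranged from 2.30 to 5.10 in wild-type and from 2.17 to 4.10 in PRA transgenic glands.

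The interferon-inducible ligands of Cxcr3, which recruit activated T cells, took unlike values, and none of the 3 passed the test. Cxcl9 had log2 ratios of 4.46, 5.29 and 5.11 in wild-type and of 7.06, 6.58, 5.57 and 4.61 in PRA transgenic glands (estimate 1.00, standard error 0.57). The reference did not clear the background limit for Cxcl9 on any array. Its log2 Cy5 signal before centering was 8.28, 9.14 and 9.30 in wild-type and 9.81, 8.89, 8.40 and 8.63 in PRA transgenic glands, and the groups overlapped. After each array was centered on its median, the difference of Cxcl9 in Cy5 alone was 0.23. Cxcl10 had -1.06, -1.59 and -0.65 in wild-type and -1.56, -1.30, -2.91 and -3.20 in PRA transgenic glands, an estimate of -1.14 with a standard error of 0.51. For Cxcl10, whose reference was well above background on all arrays, transgenic replicates 3 and 4 lay below all other glands, and replicates 1 and 2 lay within the wild-type range. Cxcl11 had 0.08 with a standard error of 0.21, at a probe with log2 signals of 15.6 to 16.3 in Cy5 and 15.4 to 16.0 in Cy3. A second probe, at 10.3 to 11.4 in Cy5, gave -0.04. Why the first probe was so bright in both channels was not tested.

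Of the homeostatic ligands 7 of 8 were tested and none passed. Cxcl12, a stromal ligand of Cxcr4 that retains stem cells and guides vessels, had 0.06 with a standard error of 0.31, Cxcl14, an abundant chemokine of epithelium and stroma, had 0.09 with a standard error of 0.14, and Cxcl13, a B cell attractant, had 0.46 with a standard error of 0.63. Ccl25, which directs T cells to the gut, had -0.11, and Ccl27a, a skin chemokine, had 0.03. Ccl19 and Ccl21a, the ligands of Ccr7 that guide T cells and dendritic cells into lymph nodes, had -1.28 with a standard error of 0.77 and -0.21 with a standard error of 0.23. Ccl19, Ccl21a and Ccl27a have near-identical copies on mouse chromosome 4, and whether the probes also read those copies was not tested. The other 4 ligands, the membrane-bound Cx3cl1 and Cxcl16, the mucosal Cxcl17 and the lymphocyte product Xcl1, lay between -0.67 and 0.11 and none passed.

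All 6 CC receptors tested here had negative estimates, with a median of -0.70, and none passed. Without wild-type replicate 1 the median was -0.12, and Ccr9 and Ccr10 turned positive, at 0.04 and 0.16. Ccr2, the Ccl2 receptor of inflammatory monocytes, had log2 ratios of 6.55, 6.23 and 5.68 in wild-type and of 5.22, 4.21, 4.87 and 6.44 in PRA transgenic glands, an estimate of -0.97 with a standard error of 0.51. Without PRA transgenic replicate 4 it was -1.39 and passed (limma, unadjusted P = 0.0057). The reference signal of Ccr2 did not clear the background limit on any array. After centering it was 0.86 higher on PRA transgenic arrays, and the difference in Cy5 alone was -0.12. Ccr7, the receptor that brings T cells and dendritic cells to lymph nodes, had -1.84 with a standard error of 1.09, and Ccr6, found on B cells and T cells, had -1.02 with a standard error of 0.80. Ccr8, Ccr9 and Ccr10, homing receptors of lymphocytes, lay between -0.43 and -0.04. Of the remaining receptors, Cx3cr1 of resident macrophages had -0.31, Cxcr6 of T cells -0.50, Cxcr3 of activated T cells 0.02 and Cxcr4 0.16, and none passed.

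Wild-type replicate 1 stood apart in several genes of lymphocyte traffic. It was the highest array for 14 of the 39 chemokine genes (35.9%), beside 11.4% of all named genes. Ccl19 was at 6.09 there, against 3.80 and 2.36 in the other wild-type glands and 2.50 to 3.06 in PRA transgenic glands. Ccr7 was at 4.49, against 0.73 and 0.71 in wild-type and -0.61, -0.42, -0.54 and 2.10 in PRA transgenic glands. Ccr6 was at 4.04, against 0.30 and 2.72 and 0.92 to 1.95, and Ccl5 at 0.53, against -1.17 and -0.87 and -1.40 to -1.08. In each of these 4 genes 1 wild-type gland carried most of the difference. Without it the log2 fold changes were -0.28 for Ccl19, -0.59 for Ccr7, -0.17 for Ccr6 and -0.24 for Ccl5, and the family median was -0.08.

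Marker genes of other cells were set beside these values. Wild-type replicate 1 was the highest array for 10 of 11 tested T and natural killer cell genes, whose mean log2 ratio was 2.36 there and 0.78 to 1.28 in the other 6 glands. It was the highest for 3 of 6 tested B cell genes, whose mean was 0.29 against -1.29 to -0.57. On the list for lymph node stroma and high endothelial venules it was the highest for 2 of 4 tested genes. These were Cr2 and Ltb, which are not particular to stroma and can also be expressed by lymphocytes. Glycam1 was highest in wild-type replicate 3 and Chst4 in PRA transgenic replicate 3, and Madcam1 was too dim to be tested. The mean of the 4 tested genes was 2.72 in wild-type replicate 1, 0.11 and 1.24 in the other wild-type glands and 0.13 to 1.02 in PRA transgenic glands. Outside these lists, wild-type replicate 1 was the highest array for 3 of 3 tested lymphatic endothelium genes, 4 of 6 luminal genes and 2 of 6 neutrophil genes. It was the highest for 1 of 6 endothelial, 1 of 6 dendritic cell, 1 of 6 basal epithelial and 1 of 5 fibroblast genes. Among 12 macrophage and monocyte, 6 adipocyte and 5 skeletal muscle genes it was the highest for none. The part of any of these cells in the chemokine values was not tested. The 4 genes that passed were also lower at an unadjusted P under 0.05 when wild-type replicate 1 was left out, with log2 fold changes of -0.59 for Ccl2, -1.46 for Ccl7, -0.62 for Ccl4 and -0.39 for Cxcl1.

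The means of some lists also lay apart by genotype, in part through the reference. Over 6 dendritic cell genes, all with negative estimates and 2 of them (Clec9a and Zbtb46) lower at an unadjusted P under 0.05, the mean was 2.38 to 2.52 in wild-type and 1.56 to 2.02 in PRA transgenic glands, with a mean difference of -0.40 in Cy5 and 0.25 in Cy3. Over 3 of 4 lymphatic endothelium genes, 2 of them (Prox1 and Lyve1) lower, it was 2.17 to 3.28 and 1.09 to 2.15, with -0.65 in Cy5 and 0.40 in Cy3. Over 6 neutrophil genes it was 0.97 to 1.40 and 0.40 to 0.92, but 3 estimates were negative and 3 positive. Of these, S100a8 was lower at -0.58, while S100a9 had -1.41, of which 0.20 was in Cy5 and 1.62 in Cy3. Over 12 macrophage and monocyte genes it was 2.58 to 2.87 and 2.58 to 3.24, with Cd163 higher at 0.47, of which 0.01 was in Cy5 and -0.45 in Cy3. Over 11 T and natural killer cell genes, 9 with negative estimates and 2 positive, it was 0.92 to 2.36 and 0.78 to 1.15, so the genotypes overlapped. In that list Cd8a was lower at -2.71, of which -2.17 was in Cy5 and 0.55 in Cy3. Klrb1c was lower at -0.56, of which -0.04 was in Cy5 and 0.53 in Cy3. Their part in the differences of Ccl2, Ccl7, Ccl4 and Cxcl1 was not tested either.

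**Figure D3:**
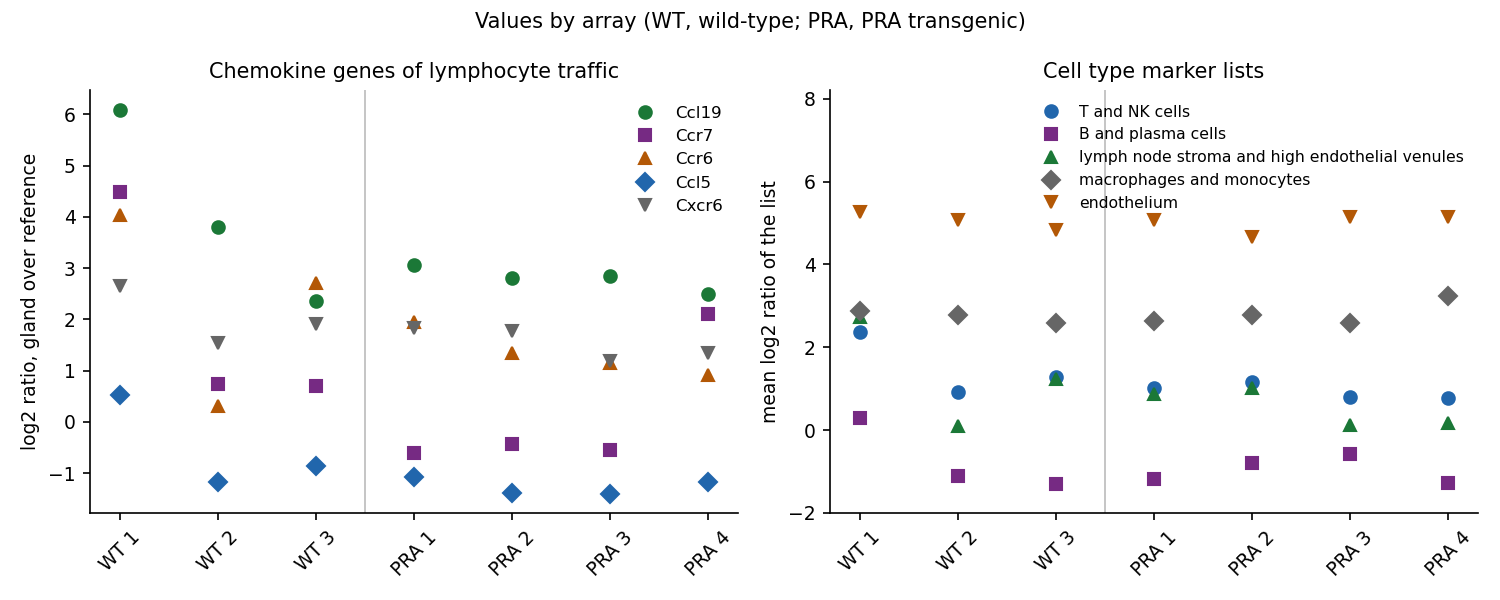
Log2 ratio of gland over reference on each of the 7 arrays (3 wild-type, WT, and 4 PRA transgenic, PRA) for the chemokine genes Ccl19, Ccr7, Ccr6, Ccl5 and Cxcr6 on the left, and the mean log2 ratio over the genes of 5 cell type marker lists on the right, with 1 point per array and no error bars. Wild-type replicate 1 is the highest array for all 5 genes and for the T cell, B cell, lymph node stroma and endothelium lists, while the macrophage list stays between 2.58 and 3.24. Within the lymph node stroma list, it is the highest array for Cr2 and Ltb but not for Glycam1 and Chst4.

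Because each value is a ratio, both channels were examined. The reference was well above background on all 7 arrays for 25 of the 39 genes, on some arrays for 6 and on no array for 8. Although the reference RNA was the same throughout, its Cy3 signal, centered on each array's median, differed by more than 0.5 on the log2 scale between the genotypes for 8 chemokine genes (20.5%), beside 7.15% of all named genes. The 8 genes were Ccl8, Ccl11, Ccl21a, Ccr2, Ccr6, Cx3cr1, Cxcl9 and Xcl1. For Ccl11 the Cy5 difference was -0.95 and the Cy3 difference -1.16, and for Ccl21a they were -1.62 and -1.40, so that both channels were lower together and the ratio differed little. For Cxcl9 the Cy5 difference was 0.23 and the Cy3 difference -0.76, so that most of its estimate of 1.00 came from the reference channel. In Ccl2, Ccl4, Ccl7 and Cxcl1 the reference was well above background on all arrays, its differences were -0.08 to 0.03, and the Cy5 differences of -0.56, -0.57, -1.32 and -0.42 were close to those of the ratios.

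**Figure D4:**
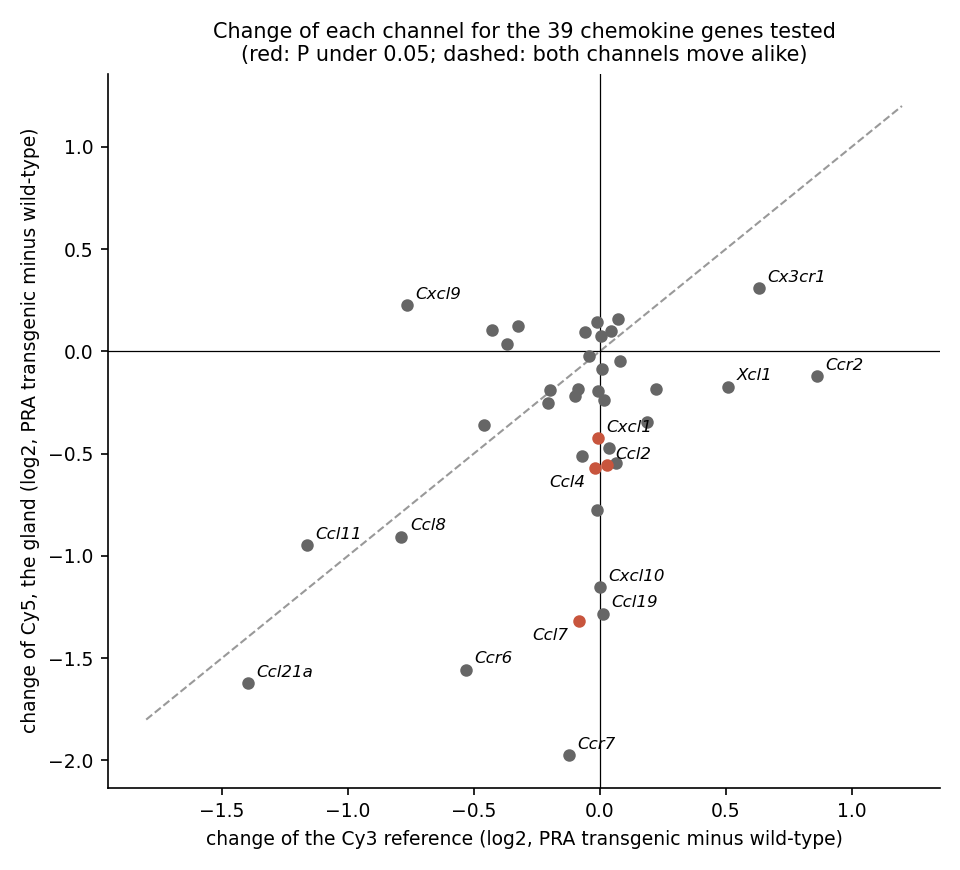
Difference between PRA transgenic and wild-type arrays in the Cy5 gland channel (vertical axis) against that in the Cy3 reference channel (horizontal axis), both in log2 units after centering each array on its channel median, for the 39 tested chemokine genes as points, with genes at an unadjusted P under 0.05 in red and a dashed line where both channels differ alike. Ccl2, Ccl4, Ccl7 and Cxcl1 lie near 0 on the Cy3 axis, while Ccr2, Ccl11, Ccl21a and Cxcl9 lie more than 0.5 away from it.

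Several ligands and receptors were near the detection limit. The 15 genes that were not tested were Ccl20, Ccl22, Ccl26, Ccl28, Ccr1, Ccr1l1, Ccr3, Ccr4, Cxcl2, Cxcl3, Cxcl5, Cxcr1, Cxcr2, Cxcr5 and Xcr1. They included the neutrophil receptors Cxcr1 and Cxcr2 and the neutrophil attractants Cxcl2, Cxcl3 and Cxcl5, whereas the related Cxcl1 was well above background on all 7 arrays. Among the tested genes, Ccl1 and Ccr10 cleared the background limit in 1 and 2 of the 4 PRA transgenic glands, and the other 37 did so in all 7 glands. Cxcr5, the B cell receptor for Cxcl13, was well above background on 1 array, wild-type replicate 1, where its log2 ratio was 5.32 against -0.54 to 1.03 on the others. Of the 74 chemokine probes, 59, 51 and 53 were well above background in Cy5 in wild-type and 46, 50, 50 and 49 in PRA transgenic glands. These shares, 73.4% ± 5.63 (SD, n = 3) and 65.9% ± 2.56 (SD, n = 4), did not overlap (exact permutation test over arrays, two-sided, p = 0.0286, the lowest value possible with 3 against 4). The share was also lower over all probes, at 64.6% and 58.6%, and in the Cy3 reference over all probes, at 53.6% and 49.2% (p = 0.0286 for each in the same exact permutation test). For the 74 chemokine probes the Cy3 share was 54.5% in wild-type and 47.6% in PRA transgenic arrays (p = 0.0571, same exact permutation test). Lower detection was thus shared by a channel whose RNA did not differ.

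Where a gene had several kept probes, they did not always give the same sign. Of 9 such genes, 4 had the same sign at every probe, namely Ccl4, Cx3cl1, Cx3cr1 and Cxcr6. The Ccl4 probes overlap, so a like sign there says little. In Ccl25, Ccl27a, Cxcl11, Cxcl12 and Cxcl16 the signs differed, with estimates of -0.43 and 0.06 for Cxcl12 and between -0.19 and 0.11 for the others. None of these 5 genes passed at the brightest probe.

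Of the genes around the chemokine system, 48 of 53 on a list of atypical receptors, further chemokines, signalling genes and upstream cytokines were tested, and 1 was higher and 5 were lower at an unadjusted P under 0.05, with none after adjustment. These were 2.08% and 10.4% of the 48, beside 3.25% and 4.54% of all named genes. The 5 atypical receptors, which bind or scavenge chemokines without the usual signalling, did not pass: Ackr1 had a log2 fold change of 0.00, Ackr2 0.52, Ackr3 -0.14, Ackr4 0.15 and Ccrl2 -0.51. The signalling genes that were lower were Gnai3, a G protein subunit that chemokine receptors couple to, at -0.24, the phospholipase Plcb3 at -0.32, the migration adaptor Elmo1 at -0.51 and the protease Adam10, which sheds Cx3cl1 and Cxcl16, at -0.35. Lta, lymphotoxin alpha, an inducer of lymphoid chemokines, was lower at -1.12. Its log2 ratios were 1.78, 0.34 and -0.27 in wild-type and -0.48, -0.47, -0.36 and -0.70 in PRA transgenic glands, with wild-type replicate 1 well above the rest. The gene that was higher was Ppbp, a platelet chemokine, at 0.89, of which 0.39 was in Cy5 and -0.49 in Cy3. The upstream cytokines Il1a, Il6, Il17a, Csf2 and Csf3 were too dim in both genotypes to be tested.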

How the data were processed

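The 7 two-color arrays measured the gland RNA of 7 mice, 3 of them wild-type and 4 PRA transgenic. The authors deposited each array's scanner output (Agilent Feature Extraction 12.0, per the labels), whose processed intensity values are background-subtracted and dye-normalized, and a table of log2 ratios that the authors had centered on each probe's median, which matched the ratios computed here and served as an alternative.

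Log2 ratios of processed Cy5 over Cy3 were averaged over the spots of each probe, leaving out controls and outliers. A probe was kept if its Cy5 was well above background throughout 1 genotype or both (34288 of 56605 probes). Each gene was represented by its brightest kept probe. Genotypes were compared on all kept probes by limma 3.58.1 (lmFit, then eBayes; R 4.3.3), and p-values were adjusted by Benjamini-Hochberg. The number of arrays limits the precision. Members were matched on the gene names in the files, 1 matching gene is not reported here, and other symbols were updated through the RefSeq gene table of GRCm38.p6, from which no coordinates were taken. Of all probes, 32994 were named by accession, 10224 by symbol, 520 by an older symbol, and 12867 kept the file's name. Promoters came from a RefSeq table of GRCm38.p6.

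The members, the lists and the tests were chosen with earlier results of these data known, and the grouping by role was made after the values were seen. The rule named genes at an unadjusted P under 0.05 and set pairs of ligands and receptors, and the other members were named after their values were seen. In simulated data made for this comparison, 99 of 100 probes changed by 2 and 99 of 100 changed by 3 on the log2 scale were recovered among 34248, with 834 unchanged probes called. A call was an unadjusted P under 0.05 with a 1.5-fold change. Smaller changes, such as those of Ccl2, Ccl7, Ccl4 and Cxcl1, were not simulated, so their recovery was not tested. The counts without the fold threshold and the comparison in Cy3 alone were chosen after seeing the data. There were 20 alternatives, 7 of which left out 1 array. The slide could not be a block, since there was 1 slide. Replicate numbers were not used to pair animals.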

Additional observations from a re-analysis of the deposited data

Results flagged for a closer look

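In 4 of the 39 tested chemokine genes 1 PRA transgenic gland lay far from the other 3, by the gap to its nearest neighbor divided by the range of the 4 glands, which exceeded the Dixon limit. Chance gives about 1 such group in 20, or 1.95 in 39. For Ccl9, a myeloid CC ligand, replicate 4 was at a log2 ratio of 2.20 and the others at 0.73, 0.75 and 0.80, a gap of 0.952 of the range. For Ccr7 replicate 4 was at 2.10 and the others at -0.61, -0.42 and -0.54, a gap of 0.933. For Ccl21a replicate 2 was at 3.22 and the others at 4.05, 4.01 and 3.96, a gap of 0.902. For Ccl24, an eosinophil attractant, replicate 4 was at 1.73 and the others at 0.65, 0.81 and 0.64, a gap of 0.841. Replicate 4 was thus the high gland in 3 of these 4 genes. In the macrophage and monocyte list it was also the highest of the 7 glands, at a mean log2 ratio of 3.24 beside 2.58 to 2.87, and the part of these cells in the values of Ccl9 and Ccl24 was not tested.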

How the results depend on the processing

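No estimate of the 4 lower genes changed sign under any of the 20 alternatives. For many of these that was fixed in advance. Leaving out 1 array cannot change the sign where the genotypes do not overlap, and a change of filter or test alone keeps the estimate. The log2 fold change lay between -0.63 and -0.47 for Ccl2, -1.48 and -0.73 for Ccl7, -0.62 and -0.16 for Ccl4 and -0.44 and -0.34 for Cxcl1. With quantile normalization Ccl2, Ccl7, Ccl4 and Cxcl1 no longer passed (limma, unadjusted P = 0.0607, 0.0610, 0.0866 and 0.149). With normexp background correction and loess Ccl4 did not pass (limma, unadjusted P = 0.101). The number of lower chemokine genes at an unadjusted P under 0.05 (4) was 0 with quantile normalization in limma, 7 with array weights and 7 with the replicate block, and 4 to 8 when 1 array was left out, with 7 without wild-type replicate 2 and 8 without PRA transgenic replicate 4. With the 1.5-fold change as well (1 gene) it was 0 with quantile normalization, 3 with normexp, 2 with both channels above background, 2 in Cy5 alone, 2 with ratios centered on each array's median, 2 with an intensity trend, 5 with array weights and 4 with the replicate block, and 1 to 4 when 1 array was left out, 3 or 4 in each case but that of PRA transgenic replicate 3. Higher genes at P under 0.05 (0) were 2 with quantile normalization and 2 with the replicate block, and 0 to 1 when 1 array was left out. With the 1.5-fold change there was 1 with the replicate block and 0 to 1 when 1 array was left out. Over all probes at P under 0.05 and 1.5-fold, 665 were higher and 887 lower. Without the filter on dim probes these were 1232 and 2135, with normexp 111 and 217, with both channels above background on all arrays 223 and 245, with the methods' t-test 434 and 562, with quantile normalization 706 and 819, and with ratios centered on each array's median 575 and 1017. With Cy5 above background on all arrays 494 were lower, with the replicate block 1154 were higher, and with 1 array left out 635 to 1129 were higher. The 4 probes past adjustment became 15 without the filter, 1 with the methods' t-test, 11 with array weights, 0 with the replicate block (limma) and 1 to 12 when 1 array was left out, with 12 without PRA transgenic replicate 4, 2 without wild-type replicate 3 and 1 without PRA transgenic replicate 3. The numbers do not pair the animals: the correlations of same-numbered glands were 0.0997, -0.297 and 0.0362, no wild-type gland but the first correlated best with its own number, and PRA transgenic replicate 4 has no partner and drops out of the block. Of 35 genes that did not pass, 17 changed sign under some alternative and 14 passed under some alternative. A cause was not tested for any of these changes.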
